A study of Mus musculus with 22 samples.

Results

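The genes described here are 9 that mark the vessels of peripheral tissues or vary with the permeability of a capillary bed: Plvap, Gpihbp1, Plpp1, Plpp3, Cd34, Fabp4, Aqp1, Meox1 and Meox2. They were chosen by name from the 55376 genes in the count tables, and all 9 had a row. RNA was sequenced from cells sorted from mouse embryos at E12.5, from embryos pooled by genotype. A regional series compared Kdr-Cherry+ endothelial cells of the meninges of the spinal cord (5 libraries) with those of the cord parenchyma (5 libraries), all from WT embryos. The parenchyma of batches 1 to 3 was the ventral cord and that of batches 4 and 5 the whole cord. A knockout series held Plxnd1 knockout and WT libraries, each of Kdr-Cherry+ endothelial cells and of ISL1-fGFP+ motor neurons, with 3 batches per group as deposited. Here cord and meninges were dissociated together, so that the endothelial cells came from both. Both sorts used a reporter, so each library holds what the reporter and the gate let through. The 2 series were counted with different settings, and levels were compared only within each.

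Capillaries differ between organs. Plvap forms the diaphragms that span fenestrae and the necks of caveolae, and the endothelium of the adult brain and cord loses it as the blood-brain barrier matures. Gpihbp1 carries lipoprotein lipase to the luminal side of capillaries of muscle, heart and fat, and Fabp4 is a fatty acid binding protein of such capillaries and of adipocytes. Meox1 and Meox2 are homeobox factors, and Meox2 with Tcf15 is known to promote fatty acid transport in heart endothelium. Plpp1 and Plpp3 are cell-surface phosphatases of lysophosphatidic acid and sphingosine 1-phosphate, Cd34 is a sialomucin of endothelium and of blood progenitors, and Aqp1 is a water channel of peripheral capillaries and of red cells. Several of the 9 are also made by mesenchyme.

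The 21 libraries used held 15685784 to 27035395 counts each. The file labelled WT endothelial batch 2 was identical to that of knockout endothelial batch 1 in all 55376 genes and was left out, which leaves 2 WT endothelial libraries. Plxnd1 had 28.9, 15.4 and 18.7 CPM (counts per 1000000 counts, on library sizes scaled by the trimmed mean of M values) in the 3 knockout endothelial libraries, against 213 and 175 CPM in WT. It had 1.78, 0.645 and 0.771 CPM in knockout motor neurons, against 12.1, 5.14 and 7.79 CPM in WT. In both cell types each knockout library lay below each WT library. In endothelial cells the log2 fold change of Plxnd1 was -3.20 ± 0.26 without a batch block (edgeR adjusted p = 0.161). With the block it was -3.04 ± 0.11 (adjusted p = 5.52e-15), a value that rests on batches 1 and 3, since WT batch 2 was left out. Markers of other cells were present in the endothelial libraries. In meningeal libraries the 13 meningeal mesenchyme markers summed to 15100 to 21300 CPM, against 1350 to 2660 CPM in spinal libraries, and their most abundant genes were Col3a1 and Col1a2. The 14 endothelial markers summed to 1140 to 2350 CPM in meningeal libraries, against 2280 to 5020 CPM in spinal libraries. Erythroid markers, led by the globin gene Hbb-y, summed to 7210 to 54000 CPM in meningeal libraries and 4460 to 46300 CPM in spinal libraries. The 9 pericyte and smooth muscle markers summed to 1210 to 1640 CPM in meningeal and 3190 to 8540 CPM in spinal libraries, with 5 of 9 lower and 4 higher in meningeal libraries. The 4 were the smooth muscle genes Acta2 (log2 fold change 4.801 ± 0.243), Cnn1 (4.801 ± 0.539), Myh11 (3.53 ± 0.29) and Tagln (2.78 ± 0.13). Of 10 blood and macrophage markers 3 were lower and 1, Mrc1, was higher (3.56 ± 0.245). Of 4 lymphatic markers 3 were lower and 1, Lyve1, was higher (5.19 ± 0.59). The 8 neural progenitor markers summed to 420 to 494 CPM in meningeal and 1020 to 1600 CPM in spinal libraries. All 8 were lower in meningeal libraries. Schwann cell markers summed to 165 to 239 CPM in meningeal and 467 to 873 CPM in spinal libraries. Of these 7 markers 5 were higher and 1 lower in meningeal libraries. Fabp7, which is in both lists, averaged 120 CPM in meningeal and 603 CPM in spinal libraries. The part of these cells in the regional differences of the 9 genes was not tested.

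Upstream sequence was matched by symbol in RefSeq (build GRCm38.p6) for 4 of the 9 genes, Aqp1, Meox2, Plpp3 and Cd34. These are also 4 of the 6 genes that passed the test between meningeal and spinal endothelium, so their promoters are shown: the 250 bases before the RefSeq start, on the plus strand, with cores bound by ETS factors (GGAA or TTCC) in capitals.
Aqp1, chr6:55336049-55336298: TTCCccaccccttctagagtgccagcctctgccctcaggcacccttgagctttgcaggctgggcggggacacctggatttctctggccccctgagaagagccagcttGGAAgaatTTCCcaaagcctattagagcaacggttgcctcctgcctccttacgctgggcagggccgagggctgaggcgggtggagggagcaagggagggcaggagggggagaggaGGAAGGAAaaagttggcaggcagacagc
Meox2, chr12:37108290-37108539: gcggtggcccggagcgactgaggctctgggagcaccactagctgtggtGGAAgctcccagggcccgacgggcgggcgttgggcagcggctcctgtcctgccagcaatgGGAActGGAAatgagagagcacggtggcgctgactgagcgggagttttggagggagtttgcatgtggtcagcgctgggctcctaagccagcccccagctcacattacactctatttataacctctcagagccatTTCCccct
Plpp3, chr4:105157097-105157346: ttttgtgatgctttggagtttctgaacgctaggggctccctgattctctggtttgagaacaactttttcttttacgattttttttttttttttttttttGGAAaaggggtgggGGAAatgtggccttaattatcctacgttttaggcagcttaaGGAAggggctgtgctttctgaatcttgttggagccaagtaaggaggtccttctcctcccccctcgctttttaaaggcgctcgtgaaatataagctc
Cd34, chr1:194938571-194938820: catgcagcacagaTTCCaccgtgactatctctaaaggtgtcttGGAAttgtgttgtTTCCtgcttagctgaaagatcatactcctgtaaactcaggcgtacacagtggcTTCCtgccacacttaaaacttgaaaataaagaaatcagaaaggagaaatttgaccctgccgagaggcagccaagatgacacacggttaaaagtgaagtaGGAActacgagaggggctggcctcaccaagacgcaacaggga
ETS factors such as Erg act in all endothelium. The ETS core occurred 5 times in the Aqp1 window, 4 times in that of Meox2, 3 times in that of Plpp3 and 5 times in that of Cd34. It was common, with at least 1 match in 93.4% of 32851 promoters and at least 5 in 18.0%. The E-box CANNTG occurred once in the windows of Aqp1 and Meox2 (66.2% of promoters hold it). A SOX core (ACAAT or ATTGT) occurred once in that of Cd34 (27.7%), and the homeobox core TAATTA once in that of Plpp3 (4.8%). No window held the GATA core AGATAA or TTATCT (10%). Both strands were searched, and matches of different motifs may overlap. For Aqp1 the first bases after the RefSeq start were not found in the transcript of the GENCODE annotation, whose start lies further downstream.

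Between the regions, Aqp1, Meox2, Fabp4, Gpihbp1 and Plpp3 were higher in meningeal than in spinal endothelial libraries. Cd34 was lower on the CPM scale. When libraries were scaled to their endothelial markers, its difference did not pass (log2 fold change 0.19, edgeR adjusted p = 0.498). Plvap, Plpp1 and Meox1 did not pass the test on the CPM scale, and the sign of each turned under that scaling. So 5 of 9 genes were called higher, where 23.0% of the 16213 tested genes were, and 1 of 9 was called lower, where 24.8% were (edgeR quasi-likelihood test, adjusted p under 0.05). The median log2 fold change of the 9 was 0.66, beside -0.01 over all tested genes. In sorted bulk RNA, fewer cells of a type and less RNA per cell cannot be told apart.

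Aqp1 (chromosome 6, 55336432 to 55348555, plus strand, mm10) showed the largest regional difference of the 9. Its levels in meningeal libraries of batches 1 to 5 were 11.6, 11.1, 17.1, 11.9 and 13.9 CPM, against 0.818, 0.382, 0.719, 0.783 and 1.34 CPM in spinal libraries. Each meningeal library lay above each spinal one, and the means were 13.1 ± 2.49 CPM in meningeal and 0.81 ± 0.346 CPM in spinal libraries (SD, n = 5 each). The log2 fold change was 4.0 ± 0.27 (SE; edgeR adjusted p = 3.54e-07), a 16.0-fold difference. Aqp1 is also a red cell protein, and the erythroid markers beside it overlapped between the regions and none of 11 passed the test. The part of red cells in the Aqp1 difference was not tested. Of the other 10 aquaporin genes 4 had counts enough to be tested, and 4 of 4 were lower in meningeal libraries.

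Meox2 (chromosome 12, 37108540 to 37179534, plus strand) had 42.2, 46.2, 37.4, 37.1 and 46.5 CPM in meningeal libraries, against 6.02, 5.90, 6.47, 3.98 and 2.95 CPM in spinal libraries. The groups did not overlap, and the 2 lowest values were those of the whole cord. The log2 fold change was 3.04 ± 0.20 (edgeR adjusted p = 3.03e-07). Its paralog Meox1 (chromosome 11, 101877510 to 101894374, minus strand) did not follow it. Meox1 had 2.12 to 2.84 CPM in meningeal libraries, with a median of 2.55, and 1.21 to 6.47 CPM in spinal libraries, with a median of 3.28. That difference did not pass (log2 fold change -0.57 ± 0.38, edgeR adjusted p = 0.237). Per kilobase of exon, the level of Meox2 was 13.7 to 20.6 times that of Meox1 in meningeal libraries, but 0.43 to 5.04 times that of Meox1 in spinal libraries. In the whole-cord libraries Meox1 was the more abundant of the pair, and in the ventral ones Meox2 was.

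The lipid uptake genes among the 9 were scarce. Fabp4 (chromosome 3, 10204088 to 10208576, minus strand) had 2.73, 1.22, 1.34, 1.42 and 1.44 CPM in meningeal libraries, against 0.175, 0.546, 0.359, 0.457 and 0.362 CPM in spinal libraries. The groups did not overlap, and the log2 fold change was 2.09 ± 0.35 (edgeR adjusted p = 3.33e-04). These values rest on 19 to 51 counts per meningeal library and 3 to 10 per spinal library. Of the 5 adipocyte markers none reached 1 CPM in any group, and they summed to at most 0.268 CPM in a regional library. Gpihbp1 (chromosome 15, 75596628 to 75599481, plus strand) had 1.29, 0.834, 2.10, 2.36 and 1.44 CPM in meningeal libraries, against 0.234, 0.273, 0.180, 0.914 and 0.983 CPM in spinal libraries. The groups overlapped through meningeal batch 2 and the 2 whole-cord libraries. Its log2 fold change was 1.65 ± 0.49 (edgeR adjusted p = 0.0144).

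Plpp3 (chromosome 4, 105157347 to 105232764, plus strand) had 128, 148, 151, 168 and 174 CPM in meningeal libraries, against 143, 74.7, 126, 72.2 and 71.2 CPM in spinal libraries. The ventral cord of batch 1 lay above the lowest meningeal value. The log2 fold change was 0.66 ± 0.20 (edgeR adjusted p = 0.0177). It was 1.27 ± 0.07 (adjusted p = 3.34e-08) in batches 4 and 5, but 0.34 ± 0.23 (adjusted p = 0.273) in batches 1 to 3. In spinal libraries of batches 1 to 5 neural progenitor markers summed to 1580, 1060, 1600, 1030 and 1020 CPM. The part of these cells in the Plpp3 levels was not tested. Plpp1 (chromosome 13, 112800792 to 112867894, plus strand), the other phosphatase, had 14.3 to 24.8 CPM in meningeal libraries and 16.8 to 25.7 CPM in spinal libraries. Its means were 20.9 ± 4.07 CPM in meningeal and 21.1 ± 4.09 CPM in spinal libraries (SD, n = 5 each), with a log2 fold change of -0.01 ± 0.17 (edgeR adjusted p = 0.979). Plpp1 shares 452 exonic bases with Mtrex on the opposite strand. The regional files were counted by strand.

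Cd34 (chromosome 1, 194938819 to 194961279, plus strand) was the most abundant of the 9 in both regions. It had 197, 174, 188, 285 and 215 CPM in meningeal libraries, against 508, 472, 303, 546 and 574 CPM in spinal libraries. Each meningeal library lay below each spinal one, and the log2 fold change was -1.18 ± 0.19 (edgeR adjusted p = 1.99e-04). Scaled to endothelial markers it was 0.19 and did not pass (edgeR adjusted p = 0.498). Plvap (chromosome 8, 71497765 to 71511752, minus strand) had 51.4, 45.2, 67.8, 98.8 and 74.4 CPM in meningeal libraries, against 98.6, 88.9, 55.6, 112 and 104 CPM in spinal libraries. The groups overlapped (log2 fold change -0.44 ± 0.22, edgeR adjusted p = 0.122), and the difference passed without meningeal batch 4 (adjusted p = 0.0304), without spinal batch 3 (0.0337) and in batches 4 and 5 alone (0.0439). In all, 4 of 9 genes had groups that did not overlap (Aqp1, Meox2 and Fabp4 above, Cd34 below), where 36.5% of tested genes did.

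**Figure D1:**
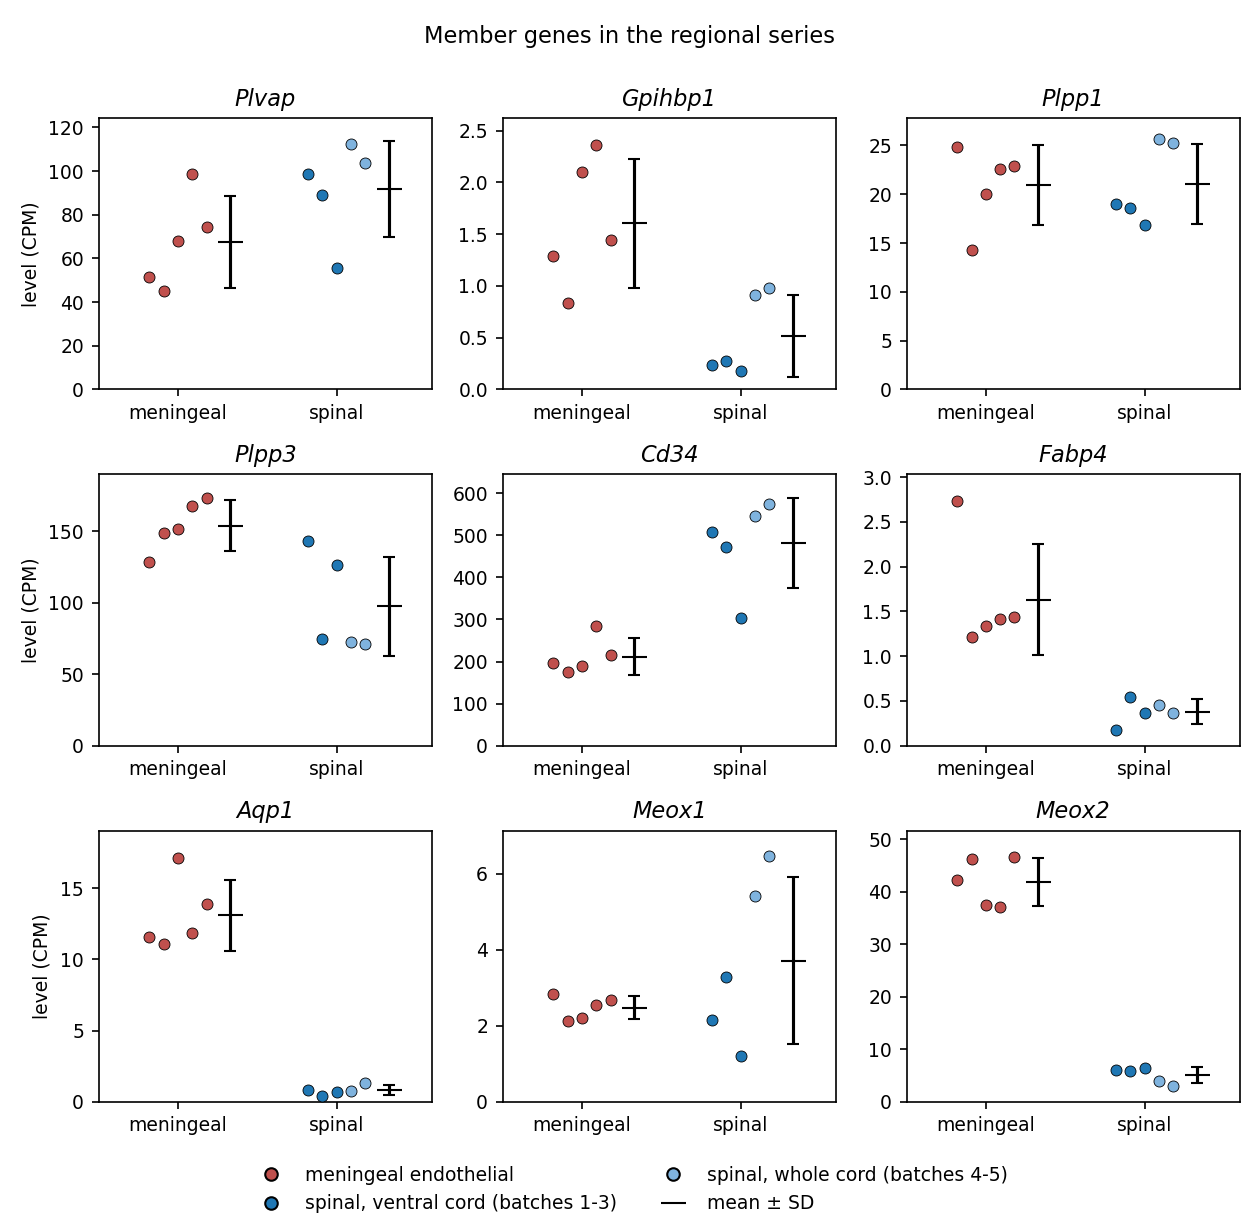
CPM of each of the 9 genes (vertical axes from 0) in the 5 meningeal and 5 spinal endothelial libraries, with ventral and whole cord in different blues and the mean ± SD beside each group. Aqp1, Meox2 and Fabp4 lie wholly above the spinal libraries and Cd34 wholly below them in CPM. Scaled to endothelial markers, the difference of Cd34 did not pass.

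The same genes were then set against the summed endothelial markers of each library, as counts per 1000 counts of the 14 markers, a comparison added after the levels had been seen. The 14 did not move alike. Their log2 fold changes ran from -2.49 (Ptprb) and -2.40 (Flt1) to -0.49 (Cdh5), -0.46 (Egfl7) and -0.34 (Emcn), and these last 3, which did not pass, lay close to Plvap at -0.44. The values given per 1000 marker counts hold for the sum and not for each marker, and Cldn5 is in the barrier list as well. Plvap had 44.9, 38.3, 46.4, 42.1 and 45.2 in meningeal libraries, against 22.4, 25.5, 24.4, 22.4 and 21.7 in spinal libraries. On this scale the groups did not overlap, and Plvap was higher in each meningeal library. Cd34 had 121 to 172 in meningeal libraries and 109 to 135 in spinal libraries, which overlapped. Meox2 had 15.8 to 39.2 in meningeal libraries, against 0.618 to 2.83 in spinal libraries. Aqp1 had 5.04 to 11.7 in meningeal libraries, against 0.109 to 0.315 in spinal libraries.

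An edgeR fit with libraries scaled to these markers moved the median log2 fold change of all tested genes by 1.33, to 1.32. In it 8 of the 9 genes were called higher in meningeal libraries, as were 12486 of 16213 genes. Plvap had a log2 fold change of 0.90 ± 0.26 (adjusted p = 0.00287), Plpp1 1.37 ± 0.32 (3.78e-04) and Meox1 0.94 ± 0.44 (0.0487), each of which had been below 0 on the CPM scale. Cd34 had 0.19 ± 0.27 (0.498). Read against the shifted median, Plvap, Meox1 and Cd34 lay below it, Plpp1 lay close to it, and Aqp1 (5.40), Meox2 (4.33), Fabp4 (3.47), Gpihbp1 (3.05) and Plpp3 (1.90) lay above it. The part of mesenchymal RNA in the meningeal levels of these genes was not tested. The ratio of Cd34 to Plvap, which no scaling of libraries changes, was 2.11 to 2.93 per kilobase in meningeal libraries and 3.70 to 4.22 in spinal libraries.

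**Figure D2:**
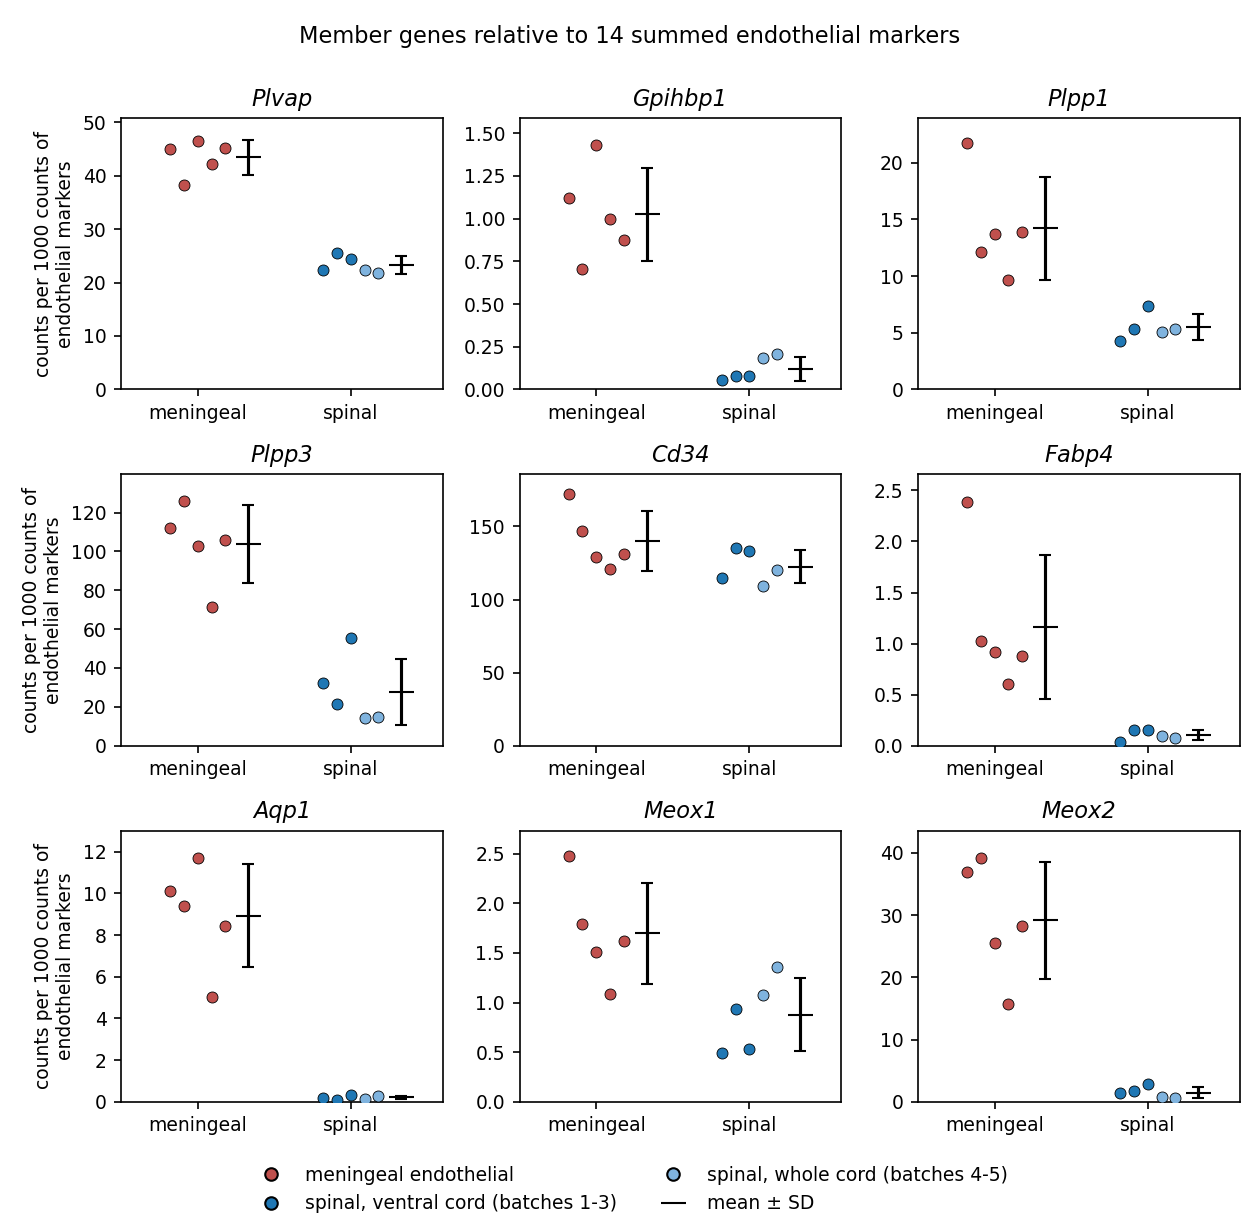
Counts of each of the 9 genes per 1000 counts of 14 summed endothelial markers (vertical axes from 0) in the 5 meningeal and 5 spinal libraries, with the mean ± SD beside each group. Plvap lies at 38.3 to 46.4 in meningeal and 21.7 to 25.5 in spinal libraries, where its CPM overlapped and were lower on average in meningeal libraries, and Cd34 overlaps.

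Within the cord, ventral and whole-cord libraries were compared, a split that cannot be told apart from the batches. Gpihbp1 was lower in the ventral cord, with 0.234, 0.273 and 0.180 CPM, against 0.914 and 0.983 CPM in the whole cord (log2 fold change -2.01 ± 0.40, edgeR adjusted p = 0.0447). It was the 1 gene called of the 8 tested, where 3.32% of 16560 genes were lower and 6.01% were called in either direction, and Fabp4 had too few counts to be tested. Meox1 had 2.16, 3.28 and 1.21 CPM in the ventral cord, against 5.42 and 6.47 CPM in the whole cord, with an adjusted p of 0.079. Meox2 (adjusted p = 0.0727) and Plpp3 (0.154) were higher in each ventral library than in each whole-cord one, and Plpp1 (0.0719) was lower. These 3 did not pass. Groups did not overlap for 7 of the 8 tested genes, beside 50.4% of all tested genes. With 1 of the 5 libraries left out, 1 to 4643 genes passed, the 4643 without batch 2. Gpihbp1 kept a log2 fold change of -2.19 to -1.86, with an adjusted p of 0.017 without batch 2, 0.136 without batch 1, 0.0773 without batch 3, 0.366 without batch 4 and 0.284 without batch 5. Without batch 4 or 5 the whole cord had 1 library, which was assumed to vary like the ventral ones. Blood and macrophage markers summed to 1100 to 1660 CPM in the ventral cord, against 3330 to 3410 CPM in the whole cord, with 8 of 10 lower, and erythroid markers to 4460 to 32900 CPM in the ventral and 44200 to 46300 CPM in the whole cord. Mesenchyme markers summed to 2010 to 2660 CPM in the ventral and 1350 to 1470 CPM in the whole cord, with 2 called higher. Neural progenitor markers summed to 1060 to 1600 CPM in the ventral and 1020 to 1030 CPM in the whole cord, with 0 called. The part of these 4 kinds of cells was not tested. In a test added after the data had been seen of whether the regional difference itself changed with the dissection, 0 of the 9 genes passed, where 0.547% of 17901 genes did. Meox2 (difference in log2 fold change -0.85 ± 0.25, edgeR adjusted p = 0.103) and Plpp3 (-0.97 ± 0.31, adjusted p = 0.128) had the smallest p-values of the 9.

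Companion genes of the same functions were read against the 23.0% of all tested genes that were higher and the 24.8% that were lower between the regions. Of 9 genes of caveolae, where Plvap also sits, 3 were higher in meningeal libraries and 0 lower. They were the coat protein gene Cavin3 (log2 fold change 1.05 ± 0.21), Pacsin3 (0.74 ± 0.18) and Ehd4 (0.67 ± 0.22), and the list's median was 0.44. Of 12 lipid uptake genes 6 were higher and 3 lower, with a median of 0.19. The fatty acid receptor gene Cd36 averaged 57.9 ± 19.8 CPM in meningeal and 6.86 ± 0.624 CPM in spinal libraries (SD, n = 5 each). Angptl4, which encodes an inhibitor of lipoprotein lipase, was higher as well (1.30 ± 0.19), and the endothelial lipase gene Lipg was lower (-4.29 ± 0.46). Lpl itself, the lipase that Gpihbp1 carries, averaged 42.3 ± 14.4 CPM in meningeal and 41.4 ± 17.5 CPM in spinal libraries, and within the cord it was lower in the ventral than in the whole-cord libraries (29.2 ± 6.05 against 59.8 ± 5.76 CPM, n = 3 and 2, edgeR adjusted p = 0.0401).

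Of 14 lipid mediator genes tested, 4 were higher and 3 lower. Lpar1, a receptor of lysophosphatidic acid, averaged 108 ± 9.05 CPM in meningeal and 14.9 ± 4.14 CPM in spinal libraries. Sphk1, which makes sphingosine 1-phosphate, averaged 13.0 ± 1.6 CPM in meningeal and 0.72 ± 0.261 CPM in spinal libraries, and the receptor gene S1pr2 was higher by 1.20 ± 0.12 on the log2 scale. Among 3 further sialomucins, Podxl was lower (-1.76 ± 0.24), and Emcn (-0.34 ± 0.16) and Podxl2 (0.21 ± 0.13) did not pass. Of the other aquaporins, the 3 of smallest p were Aqp6 (0.00944 CPM in meningeal and 3.13 CPM in spinal libraries on average), Aqp5 (0.0933 CPM in meningeal and 1.72 CPM in spinal libraries) and Aqp11 (log2 fold change -1.11 ± 0.23). Of 21 blood-brain barrier genes 15 were lower in meningeal libraries and 3 higher, with a median of -1.77. The lipid transporter gene Mfsd2a averaged 14.1 ± 4.63 CPM in meningeal and 316 ± 71.3 CPM in spinal libraries, and Spock2 (-3.20 ± 0.24) and Foxq1 (-2.73 ± 0.23) were lower too. The 14 endothelial markers had a median of -1.45 and the 13 mesenchyme markers one of 3.51, and their part in these lists was not tested. Scaling to endothelial markers moved the median of all genes by 1.33, which is larger than many differences in these lists.

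**Figure D3:**
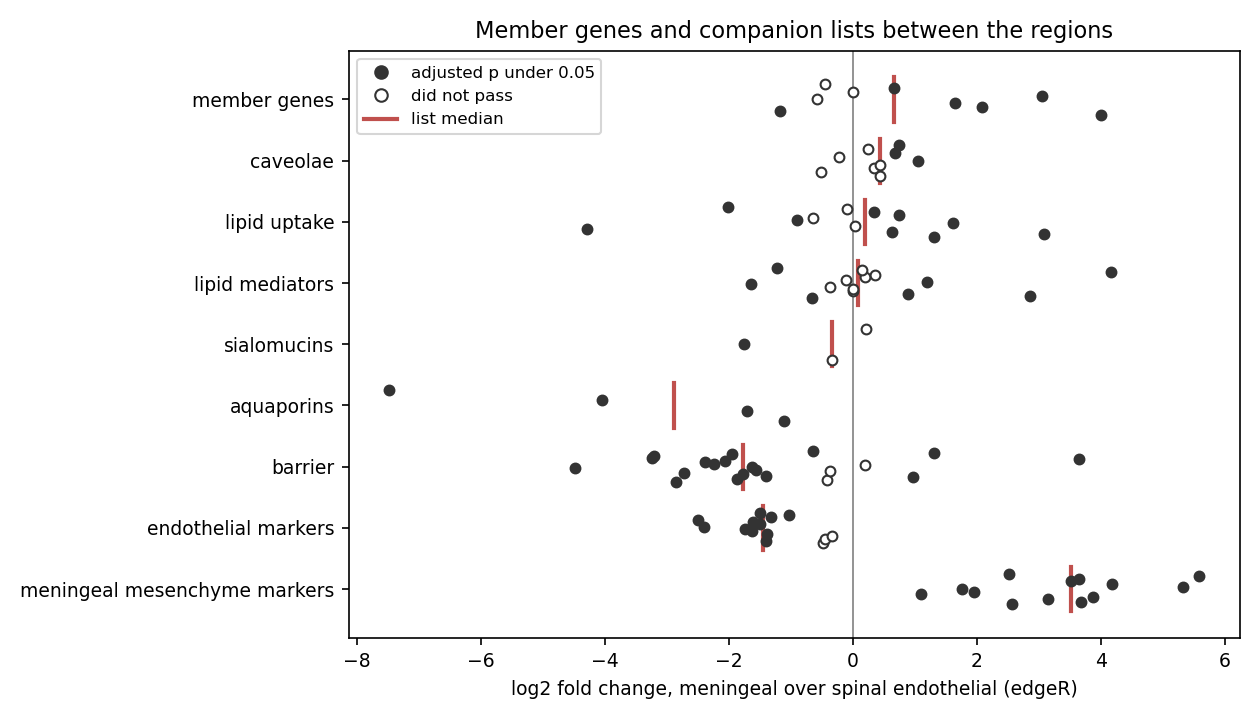
Log2 fold change of meningeal over spinal endothelial libraries (horizontal axis) for each gene tested in 9 lists, filled where the adjusted p was under 0.05, with a bar at the list median. The 9 genes spread from -1.18 (Cd34) to 4.0 (Aqp1), where endothelial markers had a median of -1.45 and mesenchyme markers one of 3.51. Scaled to endothelial markers, Cd34 had 0.19 and did not pass.

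In the knockout series, 0 of the 9 genes passed the test between Plxnd1 knockout and WT endothelial libraries, where 0% of 18209 genes were called (431 had an unadjusted p under 0.05, and DESeq2 called 32). With batch as a block (the labels repeat batch numbers across groups), 0.989% of genes were called, and Aqp1 was 1 of them. Batch 2 had no WT endothelial library, so values with the block rest on the pairs of batches 1 and 3. Aqp1 had 13.0, 17.3 and 15.8 CPM in knockout libraries, against 6.89 and 8.68 CPM in WT libraries. Each knockout library lay above each WT library, with a log2 fold change of 0.99 ± 0.20 (unadjusted p = 0.00231, edgeR adjusted p = 0.999). The value with the batch block was 0.895 ± 0.158 (adjusted p = 0.00284), and that of DESeq2 was 1.004 ± 0.23 (adjusted p = 0.0101). Over the 13 alternatives the log2 fold change ranged between 0.70 and 1.39 and the adjusted p between 0.00284 and 1. Per 1000 counts of endothelial markers Aqp1 had 10.2, 25.5 and 15.9 in knockout libraries, against 4.46 and 8.69 in WT libraries. Erythroid markers summed to 10500 to 22400 CPM in knockout and 12700 to 23300 CPM in WT libraries, and mesenchyme markers to 14900 to 17800 CPM in knockout and 15400 to 15500 CPM in WT libraries. Muscle and cartilage markers did not overlap, at 486 to 693 CPM in knockout and 284 to 468 CPM in WT libraries, and their part was not tested. Aqp1 lies on chromosome 6, as Plxnd1 does, 60.6 Mb from it.

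The other 8 genes did not pass in these fits. Cd34 had 117, 79.6 and 87.2 CPM in knockout libraries, against 153 and 111 CPM in WT libraries (log2 fold change -0.48 ± 0.20, edgeR adjusted p = 0.999), and with the batch block -0.37 ± 0.09 (adjusted p = 0.0505). Meox1 had 2.30, 4.46 and 2.32 CPM in knockout libraries, against 1.85 and 2.02 CPM in WT libraries. Its groups did not overlap, as for Aqp1, so that this held for 2 of 9 genes beside 13.8% of all tested genes, and the difference did not pass (0.66 ± 0.38). Plvap averaged 45.2 ± 17.7 CPM in knockout (SD, n = 3) and 49.1 ± 13.1 CPM in WT libraries (n = 2). Meox2 averaged 51.6 ± 6.90 and Plpp3 195 ± 23.8 CPM in knockout libraries, and in WT libraries Meox2 averaged 52.0 ± 1.17 and Plpp3 194 ± 22.9 CPM. Fabp4 had 0.615 to 1.19 CPM in knockout and 0.468 to 0.995 CPM in WT libraries, and Gpihbp1 0.791 to 1.47 CPM in knockout and 0.576 to 1.14 CPM in WT libraries. Of the companion lists (caveolae, lipid uptake, lipid mediators, sialomucins, aquaporins and barrier), 0 genes passed.

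In motor neurons 6 of the 9 genes had counts enough to be tested, and 0 passed between knockout and WT libraries, where 0.012% of 16695 genes did and 190 had an unadjusted p under 0.05. The same fit did not call Plxnd1 itself (log2 fold change -2.97 ± 0.46, edgeR adjusted p = 0.8), so 0 passing does not show equal levels. With the batch block the edgeR adjusted p of Plxnd1 was 1.35e-04. Plpp1 had 13.5, 19.7 and 14.2 CPM in knockout libraries, against 15.6, 17.8 and 14.5 CPM in WT libraries. Gpihbp1 had 6, 0 and 0 counts in knockout libraries and 0, 0 and 1 in WT libraries. The 6 counts stood in knockout batch 1, which alone held liver markers (736 CPM in sum, against at most 1.31 CPM in the other motor neuron libraries), and that part was not tested. Aqp1 was highest in the same library (1.87 CPM), and without it the log2 fold change of Aqp1 was -0.66 ± 0.62 instead of 0.40 ± 0.71. The difference between the knockout effects of the cell types passed for 0 of the 9 genes, as for 0 of 19266 genes (352 at an unadjusted p under 0.05, and 1 by DESeq2).

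**Figure D4:**
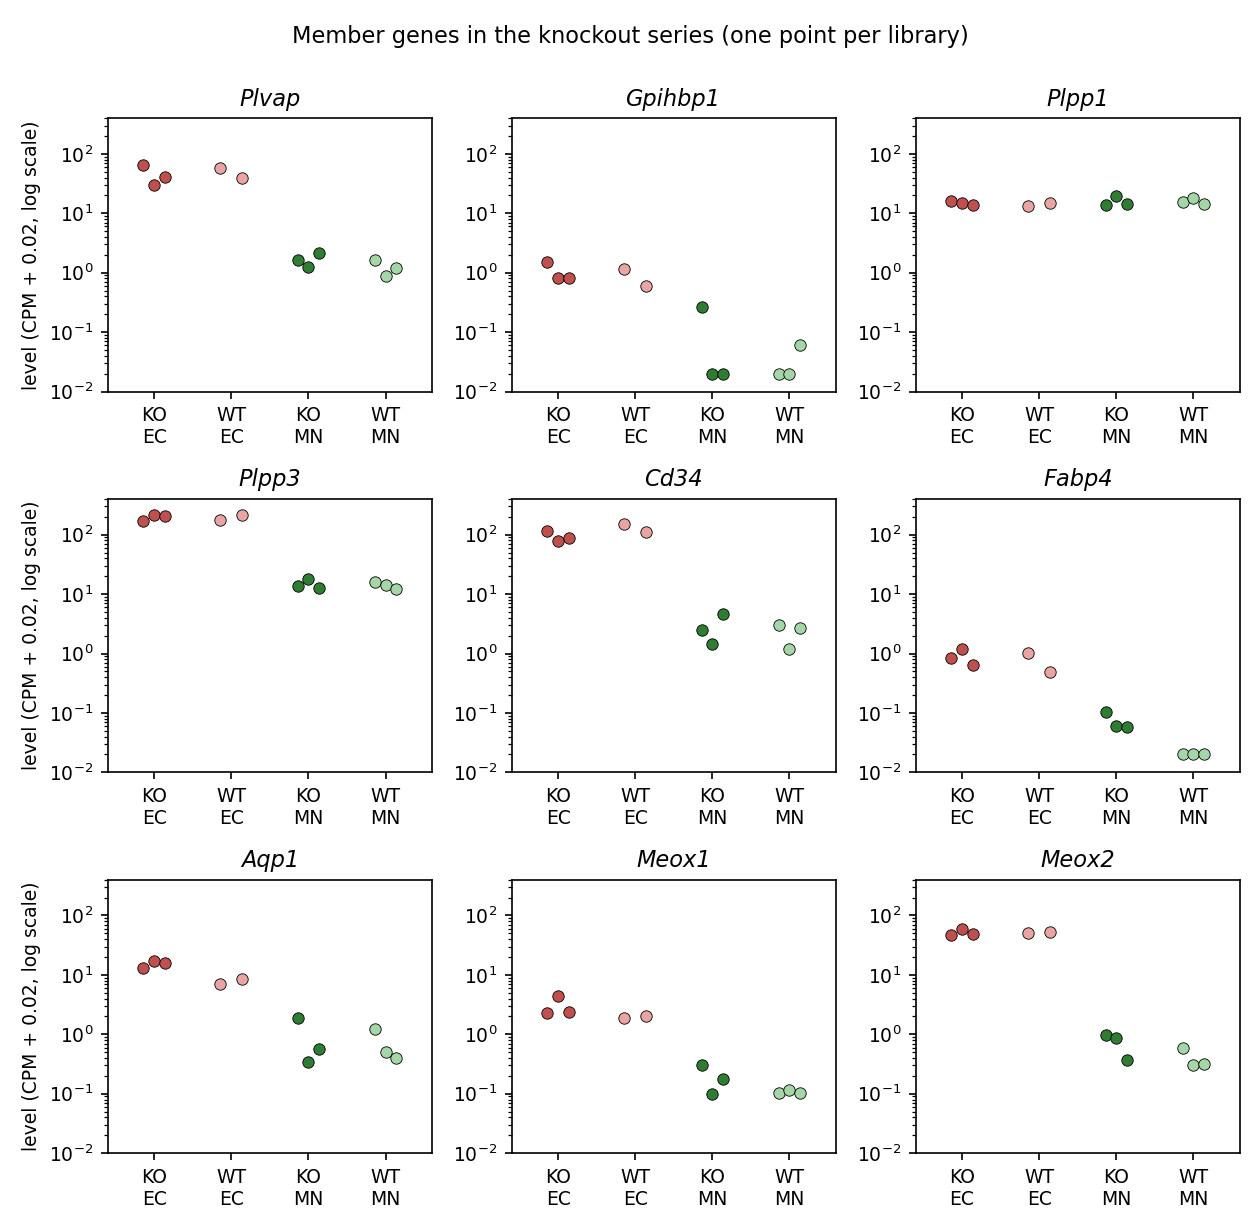
CPM plus a small offset (given on the axis, so that counts of 0 can be drawn) on a log axis for each of the 9 genes, with 1 point per library, in Plxnd1 knockout (KO) and WT endothelial cells (EC) and motor neurons (MN). Aqp1 lies at 13.0 to 17.3 CPM in knockout and 6.89 to 8.68 CPM in WT endothelial libraries, and 8 of the 9 genes are lower in motor neurons, with Plpp1 at like levels in both.

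Endothelial libraries held more of these genes than motor neurons. Kdr and Chat followed the sorts. Kdr averaged 155 ± 49.7 CPM in knockout endothelial and 4.56 ± 3.09 CPM in knockout motor neuron libraries (SD, n = 3 each). The motor neuron gene Chat averaged 0.294 ± 0.266 CPM in the endothelial and 49.6 ± 25.5 CPM in the motor neuron libraries. Isl1, the gene of the motor neuron reporter, averaged 31.9 ± 5.88 CPM in knockout endothelial and 229 ± 86.6 CPM in knockout motor neuron libraries. Of the 9 genes 8 were higher in endothelial cells among knockout libraries, where 35.3% of 19266 genes were, and 8 among WT libraries, where 33.8% were. The exception in both was Plpp1, with 14.9 ± 1.14 CPM in knockout endothelial and 15.8 ± 3.38 CPM in knockout motor neuron libraries (SD, n = 3 each), and a log2 fold change of -0.08 ± 0.16 (edgeR adjusted p = 0.662). In WT libraries its log2 fold change was -0.19 ± 0.18 (adjusted p = 0.368). These files were counted without regard to strand, so reads of Mtrex in the shared 452 bases could not be told from those of Plpp1. Mesenchyme markers summed to 14900 to 17800 CPM in knockout endothelial and 106 to 189 CPM in knockout motor neuron libraries, and to 15400 to 15500 CPM in WT endothelial and 92 to 243 CPM in WT motor neuron libraries. Neural progenitor markers summed to 670 to 1010 CPM in knockout endothelial and 144 to 201 CPM in knockout motor neuron libraries. Schwann cell markers summed to 360 to 653 CPM in the former and 64.6 to 116 CPM in the latter. The part of these cells in the differences was not tested.

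Among the genes with over 10 counts in each group, Meox2 had the widest gap. It had 46.5, 59.4 and 48.8 CPM in knockout endothelial cells, against 0.953, 0.847 and 0.347 CPM in knockout motor neurons (log2 fold change 6.17 ± 0.29, edgeR adjusted p = 6.53e-08). It had 51.2 and 52.9 CPM in WT endothelial cells, against 0.573, 0.288 and 0.293 CPM in WT motor neurons (7.04 ± 0.33, adjusted p = 6.69e-08). The log2 fold change of Cd34 was 5.05 ± 0.41 in knockout and 5.84 ± 0.44 in WT libraries, and that of Plvap 4.77 ± 0.35 in knockout and 5.32 ± 0.38 in WT libraries. Those of Aqp1 were 4.08 ± 0.56 in knockout and 3.49 ± 0.59 in WT libraries. Plpp3 had 3.71 ± 0.17 in knockout and 3.77 ± 0.18 in WT libraries, and motor neurons held 12.8 to 18.2 CPM of it in knockout and 12.1 to 16.2 CPM in WT libraries.

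The 3 scarcest genes rest on few counts in motor neurons. Fabp4 had 67 counts over the knockout endothelial and 4 over the knockout motor neuron libraries, a ratio per library size of 16.9 (95% exact interval 6.31 to 63.9, which covers counting error only). In WT libraries it had 41 counts in endothelial cells and 0 in motor neurons, so it was at least 16.9-fold higher, taking 3 counts over the group as the floor. Gpihbp1 had 76 counts in knockout endothelial and 6 in knockout motor neuron libraries (ratio 12.8, interval 5.61 to 36), and 48 in WT endothelial and 1 in WT motor neuron libraries (ratio 59.3, interval 10.2 to 2390). Meox1 had 231 counts in knockout endothelial and 13 in knockout motor neuron libraries (ratio 18, interval 10.3 to 34.2), and 108 in WT endothelial and 6 in WT motor neuron libraries (ratio 22.3, interval 9.9 to 62). Of the companion genes, 9 of 9 caveolae genes were higher in endothelial cells in knockout and in WT libraries, and Cavin1, which coats caveolae, averaged 147 ± 13.8 CPM in knockout endothelial and 2.5 ± 0.557 CPM in knockout motor neuron libraries (SD, n = 3 each). Of 21 barrier genes 18 were higher and 1 lower in knockout libraries, and 20 were higher and 0 lower in WT libraries. Of 12 lipid uptake genes 6 were higher and 4 lower, and of 15 lipid mediator genes 9 were higher and 3 lower, in knockout as in WT libraries. Among all 19266 tested genes, 6806 were higher and 6448 lower in knockout libraries, and 6517 higher and 5967 lower in WT libraries.

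Levels of different genes were compared per kilobase of exon. In meningeal libraries Cd34 led with 81.1 CPM per kilobase, followed by Plpp3 (48.7), Plvap (34.0), Meox2 (17.8), Plpp1 (12), Aqp1 (4.99), Fabp4 (1.82), Meox1 (1.11) and Gpihbp1 (0.765). In spinal libraries Cd34 (184) was followed by Plvap (46.2), Plpp3 (30.9), Plpp1 (12), Meox2 (2.15), Meox1 (1.66), Fabp4 (0.424), Aqp1 (0.308) and Gpihbp1 (0.247). Neighbours whose values overlapped between libraries, such as Meox2 and Meox1 in the cord, are not ordered by these means. In knockout endothelial libraries Plpp3 (61.6) came before Cd34 (36.2), Plvap (22.8) and Meox2 (21.9), and in WT ones Plpp3 (61.6) came before Cd34 (50.6), Plvap (24.7) and Meox2 (22). The ratio of Plpp3 to Plpp1 per kilobase was 5.75 to 8.21 in knockout endothelial, 7.47 to 7.91 in WT endothelial, 0.50 to 0.57 in knockout motor neuron and 0.45 to 0.58 in WT motor neuron libraries.

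Across the 10 regional libraries the genes nearest to each of the 9 in pattern were taken by Pearson's r of log2 CPM among 14933 genes with a mean of at least 1 CPM. These r describe 10 libraries that fall into the 2 regions and differ in mesenchymal content, and carry no test. Nearest to Aqp1 were Qprt (r = 0.997), Ddx60 (0.994) and Fam84a (0.994), and nearest to Meox2 were Serping1 (0.996), Angptl2 (0.996) and Kcnmb2 (0.995). Cd34 ran with Slc38a5 (0.994), an amino acid transporter gene of the barrier list, and with Fam13a (0.993) and Nampt (0.992). Plvap was nearest to Frmd8 (0.958), Pip5k1a (0.957) and Gimap5 (0.956), Gpihbp1 to Mvp (0.991), Tradd (0.987) and Mapkapk2 (0.975), and Plpp3 to Fgfr2 (0.975) and Igdcc4 (0.964). For Plpp1 the nearest were Jagn1 (0.966), Tmbim4 (0.954) and Stox1 (0.940), for Fabp4 Sap18 (0.983), Arl16 (0.982) and Npm3 (0.980), and for Meox1 Pold4 (0.969), Tmem179b (0.956) and Tox4 (0.953).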

How the data were processed

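RNA-seq libraries of sorted mouse embryonic cells were analysed from raw gene counts. The authors deposited 1 count table per library: per the file headers, exons were counted by gene name with featureCounts 1.6.4 on mm10 with a GENCODE annotation, without strand in the knockout series and by strand in the regional series. Reads were trimmed with Trimmomatic 0.39 and aligned with STAR 2.5.3a, per the submitters' processing notes. Genes were kept by filterByExpr (minimum count 10), scaled by TMM and tested with edgeR 4.0.16 (quasi-likelihood F-test, R 4.3.3) within each comparison, with all 4 groups of the knockout series fitted together for endothelial cells over motor neurons and for the interaction. P-values were adjusted by Benjamini-Hochberg over all genes tested, with a threshold of 0.05. DESeq2 1.42.0 was an alternative, beside another scaling, other filters, a batch block and each library left out. The main edgeR fit and the DESeq2 fit of each comparison were tested on simulated data, and the other alternatives were not. Levels are CPM on TMM-scaled library sizes. Depth was 15685784 to 27035395 counts per library. The labels name batches that recur across groups, and the batch block takes these numbers to pair samples. Deviations from group means correlated at 0.44 and 0.516 (endothelial), 0.359 to 0.413 (motor neurons) and -0.273 to 0.303 (regional) within batches. The regional values took both signs, and with 2 WT endothelial libraries the endothelial values are not independent of each other. Embryos were pooled, and p-values measure the spread between these pools. One library was left out because its file equals another's, so 21 of 22 were used. The 9 genes and the lists were chosen with earlier results of these data known. Named were the 9 genes, the 3 genes of smallest p per companion list between regions, called ones elsewhere (at most 3 per list), the 3 nearest in pattern (1 of these is not reported here), and defining or most abundant markers; some other values of list genes (Lpl between regions, Hbb-y, and markers of smooth muscle, macrophages, lymphatics and endothelium) were named after they were seen. Copies of the 9 genes were sought with blastn 2.17.0+ (90% identity over 150 bases). Cd34 and Plpp1 had such stretches in other genes, for Plpp1 in the overlapping Mtrex. Counting intervals and floors cover counting error only.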

Additional observations from a re-analysis of the deposited data

Results flagged for a closer look

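Fabp4 was 2.73 CPM in meningeal batch 1, against 1.22 to 1.44 CPM in the other 4 meningeal libraries. The gap to the nearest library was 0.854 of the whole range of the group, above Dixon's critical value for 5 samples. It was the 1 flag among 18 groups of values, where chance flags about 1 in 20. The same library had the highest erythroid sum of its group (54000 CPM, against 7210 to 20800 CPM in the others), and the part of that in the value was not tested. Without it, Fabp4 remained higher in meningeal than in spinal libraries (log2 fold change 1.86 ± 0.31, edgeR adjusted p = 6.81e-04).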

How the results depend on the processing

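Values are edgeR log2 fold changes or counts of genes called, and where none is shown the cause of a change was not tested. Between the regions, scaling to endothelial markers (added after the data were seen) called 13461 genes. It turned the sign of Plvap (0.90), Plpp1 (1.37), Cd34 (0.19, which did not pass) and Meox1 (0.94). Plpp1 was 0 with DESeq2 and RLE, 0.15 in batches 1 to 3 (Meox1 0.16), and -0.06 to 0.15 with a library left out. With a minimum count of 50 Gpihbp1, Fabp4 and Meox1 were not tested between the regions. Ventral over whole cord called 2484 genes and 3 of the 9 with DESeq2, 2952 and 3 with no filter, 0 of the 9 at a minimum count of 50 and when scaled to endothelial markers (Plvap 0.12, Plpp1 0.12, Cd34 0.16), and 1 to 4643 genes and 0 to 5 of the 9 with a library left out. Knockout over WT endothelial called 32 genes and 1 of the 9 (Aqp1) with DESeq2, 180 and 1 (Aqp1) with the replicate block, 2 with no filter, 1 in a fit of all libraries, 7 scaled to endothelial markers and 0 to 1 with a library left out. Plvap turned with the block (0.09) and the marker scaling (0.23), Plpp3 with the block (-0.06) and no filter (-0.01), Gpihbp1 with the duplicated file kept (-0.04), and Meox2 with DESeq2 and RLE (0.01), that file (0.04) and the marker scaling (0.42). With a library left out the ranges were -0.16 to 0.93 (Fabp4), -0.15 to 0.84 (Gpihbp1), -0.12 to 0.06 (Meox2), -0.10 to 0.13 (Plpp3) and -0.47 to 0.20 (Plvap). Knockout over WT motor neuron called 4 genes with DESeq2 and with no filter, 6 with the replicate block, 1 in a fit of all libraries and 0 to 1 with a library left out, where Aqp1 ranged between -0.66 and 1.08, Cd34 between -0.23 and 0.63, Plpp1 between -0.20 and 0.09 and Plpp3 between -0.10 and 0.17. Endothelial over motor neuron called 8 of the 9 in each alternative except a minimum count of 50 (6 of the 9), and Plpp1 in knockout libraries ranged between -0.18 and 0.10. The interaction called 1 gene with DESeq2 and 0 to 1 with a library left out (Aqp1 -0.09 to 1.65, Gpihbp1 -3.85 to 2.21, Meox1 -0.70 to 0.23, Plpp3 -0.19 to 0.10). The regional difference by dissection called 1321 genes with DESeq2, 305 with RLE, 1780 and 1 of the 9 with no filter, 220 at a minimum count of 50, 4 with the replicate block, and 0 to 1190 and 0 to 2 of the 9 with a library left out (Cd34 -0.23 to 0.15, Fabp4 -0.03 to 0.84). The block changed no other call among the 9. Depth limits Fabp4 and Gpihbp1, with 3 to 51 counts per regional library.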
